A study of Mus musculus with 24 samples.

Results

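The cytochrome P450 genes were read in the terminal ileum of germ-free and conventional mice. They were taken as all genes with a probe set of a single symbol whose symbol is Cyp followed by a family number, a subfamily letter and a gene number, with the brightest probe set where a gene had several. This gave 82 of 18820 genes, and all 82 were matched to RefSeq by gene identifier. The groups, with 4 male C57BL/6OlaHsd mice of 8 weeks in each, were germ-free mice on long-chain β2→1-fructan, germ-free mice on short-chain β2→1-fructan, germ-free mice on water, conventional mice on long-chain β2→1-fructan, conventional mice on short-chain β2→1-fructan and conventional mice on water. Fructan was gavaged at 10 mg per day for 5 days, all mice ate a diet with 10% fat, and each mouse gave 1 Affymetrix Mouse Gene 1.1 ST array. The long-chain fructan is inulin and the short-chain one oligofructose (FOS). The germ-free mice were bred at another facility than the conventional mice, which came from a commercial supplier, so that colonization and source cannot be told apart. For germ-free mice the short-chain solution had been filtered at 0.2 µm and the long-chain fructan irradiated at 25 kGy, which broke some of its longer chains, whereas neither was done for conventional mice, so that fructan and its sterilization cannot be told apart within germ-free mice.

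P450 enzymes are haem proteins that insert an oxygen atom into their substrates with electrons handed over by a reductase. Families 1 to 4 oxidize drugs, plant compounds, fatty acids and eicosanoids, and many of their genes lie in clusters of close copies. Most of the other families build or break down sterols, steroids, bile acids, retinoic acid and vitamin D. In the small intestine P450 enzymes of the enterocyte meet food compounds before the liver does, and several genes are known targets of the receptors Ahr, Nr1i2 (PXR), Nr1i3 (CAR) and Ppara.

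The first question was how the P450 genes differed with colonization. Over the 3 treatments together, 29 of 82 members (35.4%) were higher in the 12 germ-free than in the 12 conventional mice and 8 (9.76%) were lower, at a limma p adjusted over all genes under 0.05. Of all genes, 18.6% were higher and 15.4% were lower by the same test. The median log2 difference was 0.07 for the members and 0.03 for all genes. The other 45 members did not pass. Levels are log2 values of probe sets whose brightness depends on their probes, so that differences were taken between mice within 1 gene, and brightness served only to sort probe sets coarsely. The tissue was a piece of whole ileum wall, in which fewer cells of a type and less RNA per cell cannot be told apart.

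**Figure D1:**
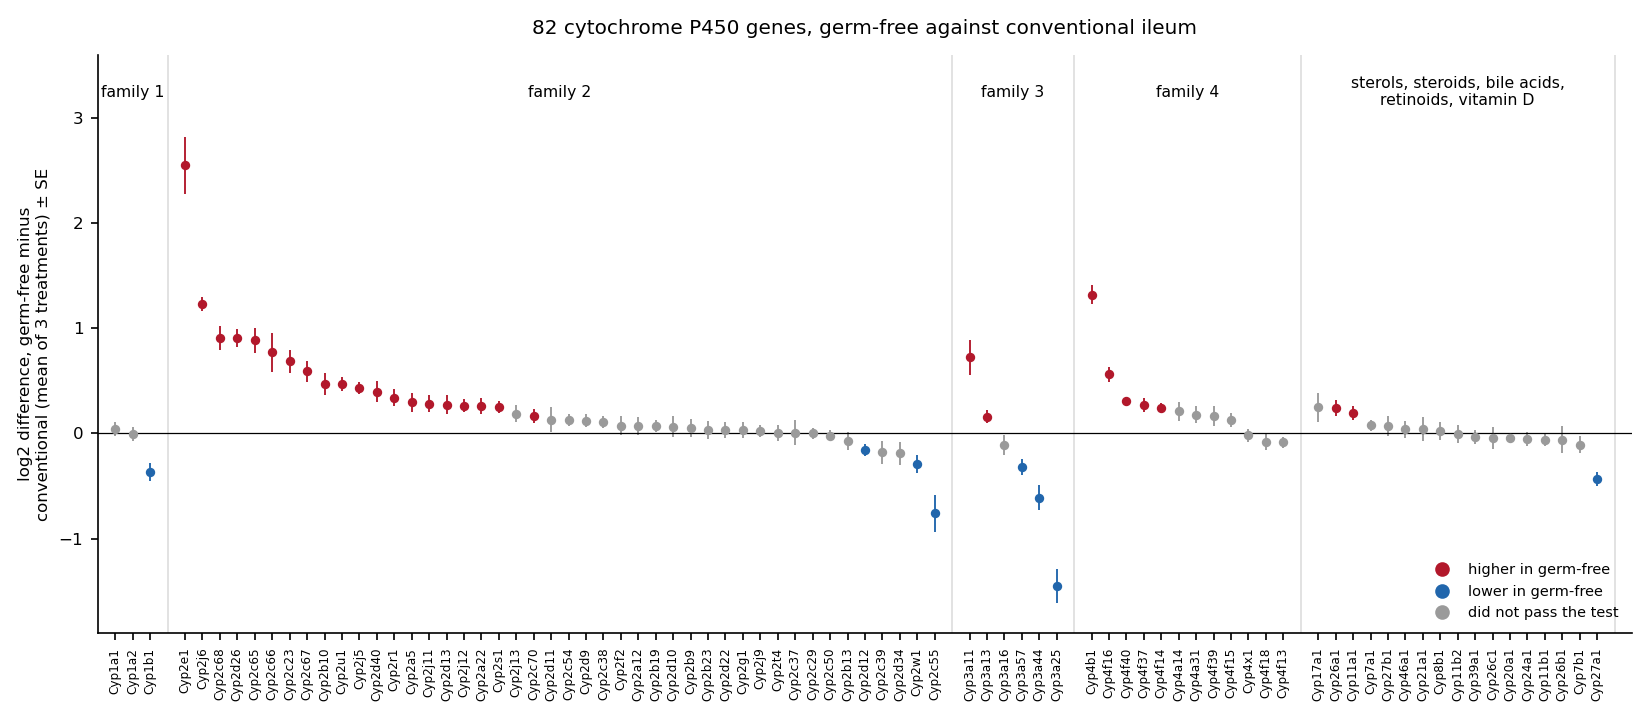
Log2 difference, germ-free minus conventional, as the mean of 3 treatments (y axis, ± SE of the limma fit) for each of the 82 P450 genes (x axis, by family). Points above 0 in red passed the test as higher (29 genes), points below 0 in blue as lower (8 genes), and grey points did not pass, with Cyp2e1 at 2.55 and Cyp3a25 at -1.45 at the ends.

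As a description, the counts were split at the median of the table, which sorts probe sets by brightness and not genes by abundance. Of the 24 members with a mean above the median of all values of the table (4.95 on the log2 scale), 14 were higher and 4 lower, together 75% of them, against 48.6% of all genes above that median. Of the 58 members below it, 15 were higher and 4 lower, together 32.8%, against 14.6% of all genes below it.

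Neighbouring genes of the same subfamily differed in opposite directions in 2 gene clusters. The 250 bases before the transcript start given in the RefSeq promoter table (GRCm38.p6, 5′ to 3′ in the direction of the gene) are shown for 1 higher and 1 lower gene of each cluster and for Cyp2e1, the member with the largest difference. Capitals mark 3 words on either strand, namely TATAAA (the letters of the TATA box, wherever they stand), AGGTCA (a core word of nuclear receptor sites) and CAAAGTCCA (as in sites of the enterocyte and liver factor HNF4A), and no 2 marked words overlapped. The first pair is Cyp2c65, higher in germ-free mice (chr19:39060756-39061005, plus strand), and Cyp2c55, lower in germ-free mice (chr19:39006769-39007018, plus strand).
Cyp2c65: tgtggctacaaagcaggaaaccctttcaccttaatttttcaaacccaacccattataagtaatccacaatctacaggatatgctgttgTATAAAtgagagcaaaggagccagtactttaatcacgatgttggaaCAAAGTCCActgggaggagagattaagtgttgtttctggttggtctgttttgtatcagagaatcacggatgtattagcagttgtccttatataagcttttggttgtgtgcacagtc
Cyp2c55: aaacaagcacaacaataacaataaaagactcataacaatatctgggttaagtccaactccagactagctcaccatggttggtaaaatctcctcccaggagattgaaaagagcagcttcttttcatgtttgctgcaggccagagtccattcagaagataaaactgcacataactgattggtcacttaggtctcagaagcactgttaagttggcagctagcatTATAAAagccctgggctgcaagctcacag
The second pair is Cyp3a11, higher in germ-free mice (chr5:145879855-145880104, minus strand), and Cyp3a25, lower in germ-free mice (chr5:146009619-146009868, minus strand).
Cyp3a11: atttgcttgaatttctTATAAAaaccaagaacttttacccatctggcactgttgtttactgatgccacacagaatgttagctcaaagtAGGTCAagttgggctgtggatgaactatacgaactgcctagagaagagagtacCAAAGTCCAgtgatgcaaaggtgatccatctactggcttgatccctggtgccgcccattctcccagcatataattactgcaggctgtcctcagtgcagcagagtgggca
Cyp3a25: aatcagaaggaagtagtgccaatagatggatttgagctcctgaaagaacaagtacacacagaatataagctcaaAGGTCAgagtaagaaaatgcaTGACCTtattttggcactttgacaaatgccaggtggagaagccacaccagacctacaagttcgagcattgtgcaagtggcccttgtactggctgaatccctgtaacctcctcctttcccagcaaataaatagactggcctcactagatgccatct
Cyp2e1 stands apart from the clusters (chr7:140763569-140763818, plus strand).
Cyp2e1: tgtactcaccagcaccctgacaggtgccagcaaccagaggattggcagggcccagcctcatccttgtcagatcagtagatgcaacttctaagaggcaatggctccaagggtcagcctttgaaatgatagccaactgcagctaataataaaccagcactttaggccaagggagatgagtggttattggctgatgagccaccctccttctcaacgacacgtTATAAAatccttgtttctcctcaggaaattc

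The start used lay 79 bases inside the bounds of the gene in RefSeq for Cyp2c55 and 26 bases inside for Cyp3a25 (whose last window bases are thus within the annotated gene), and at the edge of the gene for the other 3. TATAAA began 29 and 31 bases before the start of Cyp2c55 and Cyp2e1, but 162 and 234 bases before that of Cyp2c65 and Cyp3a11. In both pairs CAAAGTCCA stood before the higher gene, beginning 116 bases before the start of Cyp2c65 and 109 before that of Cyp3a11, and no copy stood in these windows of Cyp2c55 and Cyp3a25. The word was found in 7 of the 63 members with a window in the table (11.1%), against 0.384% of all 32851 starts. These 7 were 5 of 26 higher members (Cyp2c65, Cyp2c67, Cyp2c68, Cyp2c70 and Cyp3a11), 0 of 7 lower members and 2 of 30 members that did not pass, and 4 of the 5 lie in the Cyp2c cluster of close copies. TATAAA was in 24 of 63 members (38.1%), against 12.4% of all starts, namely in 11 of 26 higher, 2 of 7 lower and 11 of 30 other members. AGGTCA was in 14 (22.2%), against 14% of all starts, and went the other way with 3 of 26 higher, 3 of 7 lower and 8 of 30 other members. The other 3 words were searched on both strands. GTTAAT, part of the site of HNF1, was in 4 of 63 members (6.35%), all of them higher, against 6.43% of all starts. TNGCGTG, the core word of the Ahr response element, was in 1 of 63 members (1.59%), the higher Cyp2c68, against 4.1% of all starts. GATAAG, a word bound by GATA factors, was in 8 (12.7%), against 6.55% of all starts, with 5 of 26 higher, 0 of 7 lower and 3 of 30 other members. Aligned end to end, the windows of Cyp2c65 and Cyp2c55 were 54.7% identical, where the 55 pairs of Cyp2c windows ranged from 46.4% to 84.3% with a median of 52.5%. Those of Cyp3a11 and Cyp3a25 were 54.3% identical, where the 15 pairs of Cyp3a windows ranged from 47.9% to 92.9% with a median of 56%. A word in a window is a description of letters and says nothing about binding.

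Family 2 held most of the differences and also most of the members. This family oxidizes small organic molecules, drugs and polyunsaturated fatty acids, and of its 44 members 20 were higher in germ-free mice, 3 were lower and 21 did not pass. Thus 52.3% of family 2 passed, against 45.1% of all members and 34% of all genes. The share was 83.3% in family 3, 41.7% in family 4 and 33.3% in family 1. Cyp2e1, which oxidizes ethanol, acetone and other small molecules, had a level of 6.31 at the lowest, 8.47 at the median and 9.38 at the highest in germ-free mice, against 4.87, 5.50 and 7.29 in conventional mice. Most germ-free mice lay above all conventional mice, while the ranges of both overlapped. The log2 difference was 2.55 ± 0.27 (SE), a 5.86-fold higher level (adjusted p = 2.80e-08). By treatment, the 4 germ-free mice on long-chain β2→1-fructan averaged 8.06 ± 0.958, against 5.92 ± 0.983 in the 4 conventional mice (SD). On short-chain β2→1-fructan germ-free mice averaged 8.66 ± 0.228, against 5.13 ± 0.258 in conventional mice, and on water 7.86 ± 1.28, against 5.87 ± 0.408. The spread between mice was thus widest in germ-free mice on water, and the difference was 3.53 with short-chain β2→1-fructan, 2.14 with long-chain β2→1-fructan and 1.99 with water. The short-chain change differed by 1.54 between germ-free and conventional mice (adjusted p = 0.90, limma interaction term), which did not pass.

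The level of Cyp2e1 went along with that of adipocyte markers in the same pieces of ileum. All 6 adipocyte markers (Adipoq, Plin1, Fabp4, Cidec, Lep and Retn) were higher in germ-free mice, and their summed level on the log2 scale was 9.71 to 11.57 in germ-free mice with a median of 11.19, against 8.46 to 9.93 in conventional mice with a median of 9.10. Within germ-free mice Cyp2e1 and this sum had a Pearson's r of 0.958 and a Spearman's rho of 0.930 (permutation p = 1e-05 and 3e-05, the first being the smallest that the permutations can give, n = 12). Within conventional mice they had an r of 0.927 and a rho of 0.937 (permutation p = 1e-05 and 3e-05, n = 12). These were the 2 relations computed, with the same adjusted p, and without the 2 mice farthest from the median sum r was 0.925 and 0.898. The 12 mice of each relation were pooled over the 3 treatments and permuted across them, so that differences between treatments enter r, rho and p. With the sum as a covariate, chosen after seeing the data, the difference of Cyp2e1 between germ-free and conventional mice was 0.13 ± 0.21 (SE) on the log2 scale (adjusted p = 0.774), against 2.55 without it. The sums of germ-free and conventional mice overlapped little, so that this model can hardly tell them from colonization. Whether fat in the pieces accounts for the difference was not tested.

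**Figure D2:**
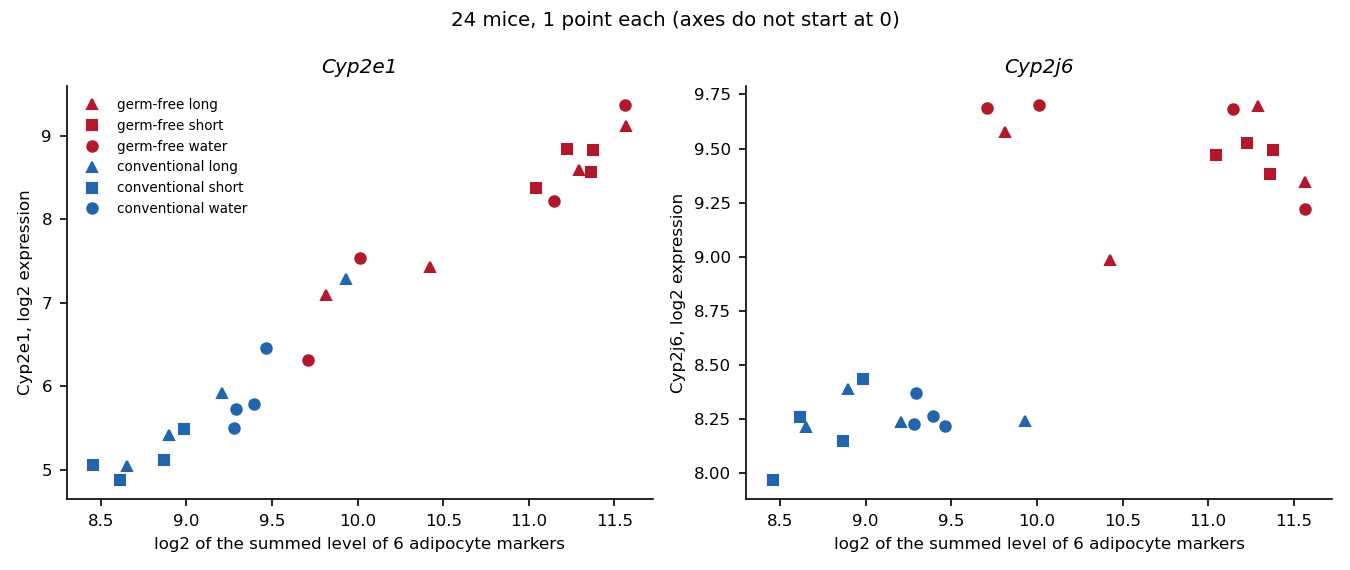
Level of Cyp2e1 (left) and Cyp2j6 (right) on the log2 scale (y axes) against the log2 of the summed level of 6 adipocyte markers (x axes), 1 point per mouse, germ-free in red and conventional in blue, with triangles for long-chain, squares for short-chain and circles for water. The Cyp2e1 points lie along 1 line through both colours, with r of 0.958 in germ-free and 0.927 in conventional mice, whereas the Cyp2j6 points form 2 levels, 8.99 to 9.70 in germ-free and 7.97 to 8.43 in conventional mice.

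Cyp2j6 was the member with the smallest p. It ranged from 8.99 to 9.70 with a median of 9.51 in germ-free mice, against 7.97 to 8.43 with a median of 8.24 in conventional mice. No germ-free mouse overlapped with a conventional one, and the log2 difference was 1.23 ± 0.07 (SE), a 2.35-fold higher level (adjusted p = 1.12e-13). With the adipocyte sum as a covariate the difference was 1.34. Its neighbours in the Cyp2j cluster on chromosome 4 differed less. Cyp2j5, Cyp2j11 and Cyp2j12 were higher by 0.44, 0.28 and 0.26 on the log2 scale, whereas Cyp2j13 (0.19, adjusted p = 0.0784) and Cyp2j9 (0.03, adjusted p = 0.755) did not pass. Thus 4 of the 6 genes of this cluster passed, all as higher. Cyp2j5, Cyp2j11 and Cyp2j12 were read on dim probe sets (means of 2.69, 2.52 and 2.90, below the table median of 4.95). Cyp2j6 and Cyp2j9 had means of 8.86 and 6.10. Since the genes are of 1 subfamily, signal of 1 may be read by the probes of another.

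Every germ-free array lay above every conventional array for 4 of 82 members (4.88%), against 1.31% of all genes, and none of the members lay wholly below, against 2.44% of all genes. These 4 were Cyp2j6, Cyp4b1, Cyp2d26 and Cyp2u1, the last of which was picked out after its values were seen. Cyp2d26 had levels of 10.06 to 10.84 with a median of 10.45 in germ-free mice, against 8.88 to 9.86 with a median of 9.61 in conventional mice. Its difference was 0.91 ± 0.09 (SE) on the log2 scale, a 1.88-fold higher level (adjusted p = 4.67e-09). Cyp2u1, a hydroxylase of long-chain fatty acids, ranged from 6.60 to 7.32 in germ-free mice, against 6.06 to 6.55 in conventional mice, with a difference of 0.47 ± 0.07 (SE).

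**Figure D3:**
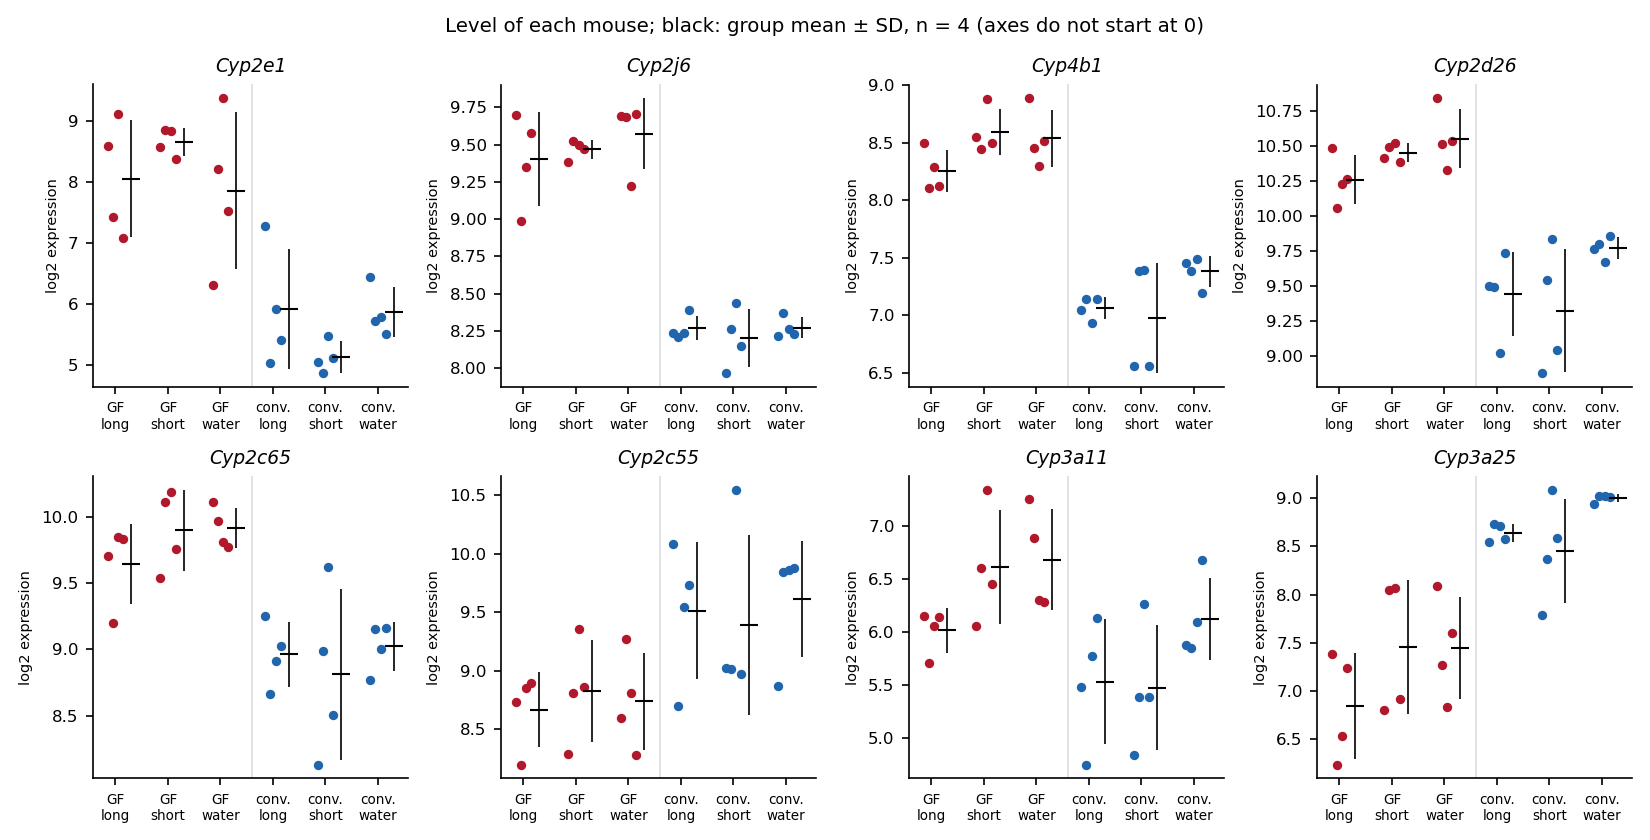
Level on the log2 scale (y axes) of 8 P450 genes in each of the 24 mice, germ-free in red on the left and conventional in blue on the right, with the black mark and bar as group mean ± SD (n = 4). For Cyp2j6, Cyp4b1 and Cyp2d26 all red points lie above all blue points, and for Cyp2c55 and Cyp3a25 the blue points are the higher ones with some overlap.

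The Cyp2c cluster on chromosome 19, whose enzymes oxidize drugs and arachidonic acid, held genes of both directions. Of its 12 genes 5 were higher in germ-free mice, 1 was lower and 6 did not pass. Cyp2c65 ranged from 9.20 to 10.19 with a median of 9.82 in germ-free mice, against 8.13 to 9.62 with a median of 9.0 in conventional mice, and was higher by 0.89 ± 0.12 (SE, adjusted p = 1.27e-06). Cyp2c55, its next neighbour among the members, ranged from 8.20 to 9.35 with a median of 8.81 in germ-free mice, against 8.70 to 10.55 with a median of 9.64 in conventional mice. It was lower by 0.76 ± 0.18 (SE, adjusted p = 0.00136). Both genes overlapped between germ-free and conventional mice, and they lie next to each other, from 39006940 to 39042690 (Cyp2c55) and from 39061006 to 39093948 (Cyp2c65) of chromosome 19.

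Further along the cluster Cyp2c66, Cyp2c67 and Cyp2c68 were higher by 0.77, 0.59 and 0.91, and Cyp2c70, barely past the threshold, by 0.17 (adjusted p = 0.0465). Cyp2c68 ranged from 5.84 to 7.05 in germ-free mice, against 4.76 to 6.11 in conventional mice. A probe set shared by Cyp2c40, Cyp2c67, Cyp2c68 and Cyp2c69 differed by 0.66, with means of 7.32 in germ-free and 6.66 in conventional mice. Since the genes are close copies, signal of 1 copy may be read by the probes of another. Cyp2c23, which lies outside the cluster on the same chromosome and forms epoxides of arachidonic acid in the mouse kidney, was higher by 0.69 ± 0.11 (SE, adjusted p = 1.24e-05).

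**Figure D4:**
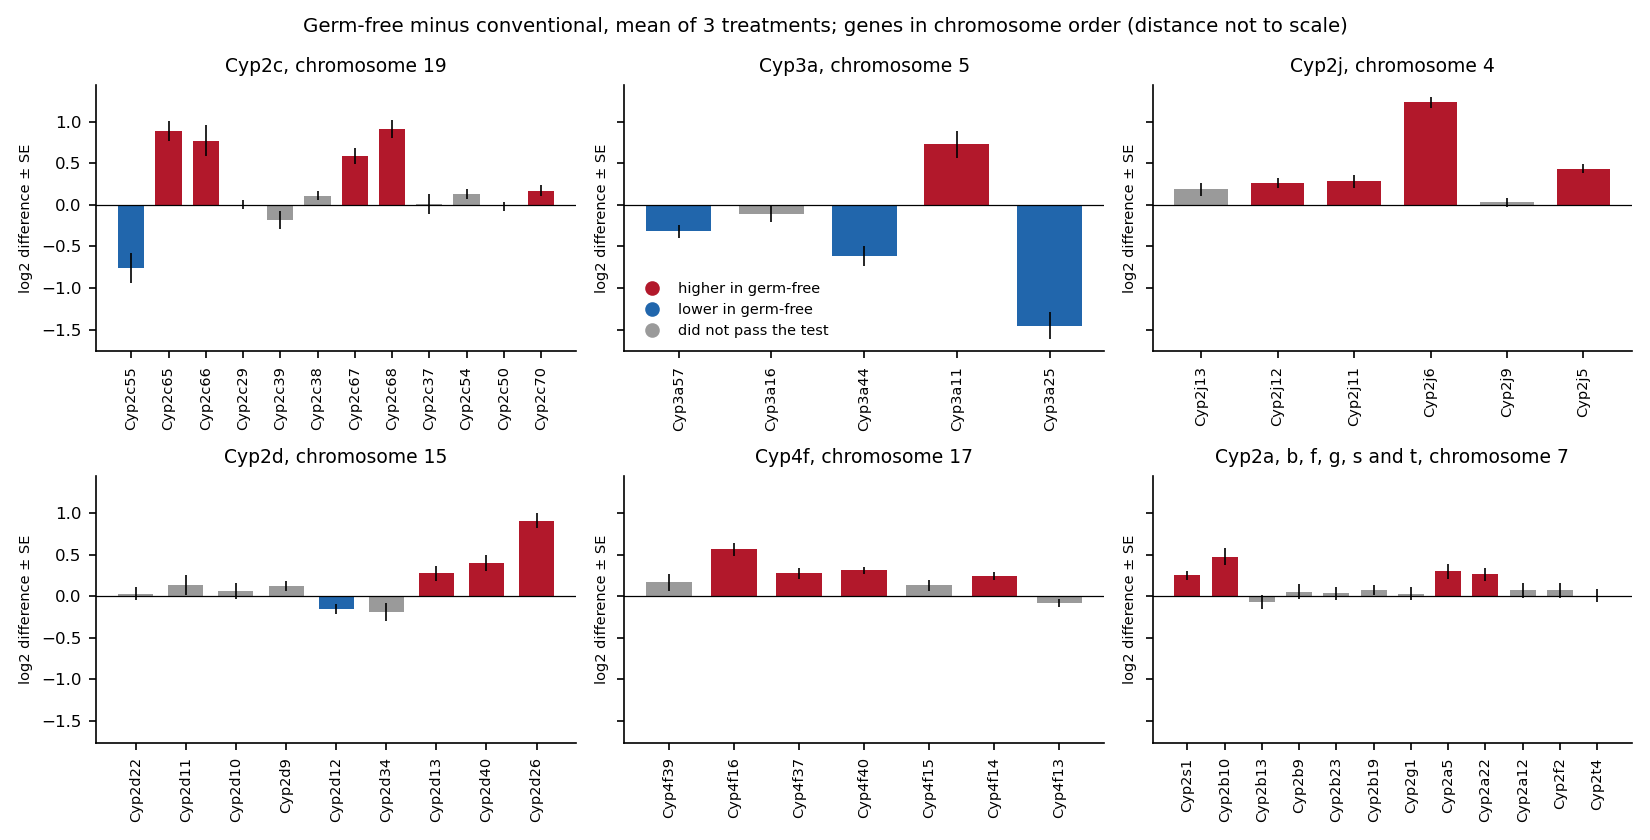
Log2 difference, germ-free minus conventional, as the mean of 3 treatments (y axes, bars ± SE of the limma fit) of the P450 genes in 6 clusters, in chromosome order along the x axes with distances not to scale. Red bars passed as higher, blue bars as lower and grey bars did not pass, and the Cyp2c and Cyp3a panels hold bars of both colours side by side (Cyp2c55 at -0.76 beside Cyp2c65 at 0.89, Cyp3a11 at 0.73 beside Cyp3a25 at -1.45).

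In the Cyp2d cluster on chromosome 15, 3 of 9 genes were higher and 1 was lower. The higher ones were Cyp2d26, Cyp2d40 (0.40) and Cyp2d13 (0.27), which follow each other at one end of the cluster, and the lower one was Cyp2d12 (-0.15, adjusted p = 0.0375). Leaving out single arrays ended the call of Cyp2d12 in 12 of 24 cases, and its difference was 0.11 with the adipocyte sum as a covariate. In the cluster of Cyp2a, Cyp2b, Cyp2f, Cyp2g, Cyp2s and Cyp2t genes on chromosome 7, 4 of 12 were higher. Among these Cyp2b10, a known target of Nr1i3, ranged from 3.76 to 5.03 in germ-free mice, against 3.36 to 4.04 in conventional mice (0.48 ± 0.10, SE, adjusted p = 7.05e-04), and Cyp2s1 was higher by 0.25 (adjusted p = 0.00103). Cyp2r1, a 25-hydroxylase of vitamin D, was higher by 0.34, and Cyp2w1 was lower by 0.29 on the log2 scale.

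Family 3, the oxidases of drugs and steroids, was split. Of its 6 members 2 were higher in germ-free mice, 3 were lower and 1 did not pass. Cyp3a25 had the largest decrease of all members. It ranged from 6.23 to 8.09 with a median of 7.25 in germ-free mice, against 7.78 to 9.09 with a median of 8.72 in conventional mice, and was lower by 1.45 ± 0.16 (SE), a 2.74-fold difference (adjusted p = 7.99e-08). The highest germ-free mice lay above the lowest conventional mouse. A probe set shared with Cyp3a57 and Cyp3a59 differed by -1.46, with means of 5.84 in germ-free and 7.31 in conventional mice.

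Cyp3a44 and Cyp3a57, in the same cluster on chromosome 5, were lower by 0.61 ± 0.12 and 0.32 ± 0.08 (SE, adjusted p = 1.87e-04 and 0.00196). Cyp3a11, the main drug-oxidizing member of the family in mouse liver and a known target of Nr1i2, lies between Cyp3a44 and Cyp3a25 and went the other way. It ranged from 5.71 to 7.34 with a median of 6.29 in germ-free mice, against 4.75 to 6.68 with a median of 5.81 in conventional mice, a log2 difference of 0.73 ± 0.17 (SE, adjusted p = 0.00111). Of the 3 treatments it passed with short-chain β2→1-fructan alone (1.14, adjusted p = 0.00719). The 2 probe sets shared by Cyp3a11, Cyp3a41a, Cyp3a41b and Cyp3a44 differed by -0.04 and -0.02 between germ-free and conventional mice. Cyp3a13, which lies apart on chromosome 5, was higher by 0.16 (adjusted p = 0.0430), and this call ended in 18 of 24 cases when single arrays were left out.

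Family 4 hydroxylates fatty acids and eicosanoids. Of its 12 members 5 were higher in germ-free mice over the 3 treatments, none was lower and 7 did not pass. Cyp4b1, which oxidizes fatty acids and some plant toxins, ranged from 8.10 to 8.89 with a median of 8.47 in germ-free mice, against 6.56 to 7.49 with a median of 7.17 in conventional mice. The groups did not overlap, and the log2 difference was 1.32 ± 0.09 (SE), a 2.50-fold higher level (adjusted p = 9.30e-12). With the adipocyte sum as a covariate it was 1.36. Its neighbours Cyp4a14 (0.21, adjusted p = 0.0696), Cyp4a31 (0.18, adjusted p = 0.0877) and Cyp4x1 (-0.02, adjusted p = 0.852) did not pass. The 2 probe sets shared among Cyp4a10, Cyp4a31 and Cyp4a32 differed by 0.57 and 0.62. On these and the other shared probe sets no test is given.

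In the Cyp4f cluster on chromosome 17, 4 of 7 genes were higher. Cyp4f16 ranged from 9.58 to 10.31 in germ-free mice, against 8.86 to 9.67 in conventional mice (0.56 ± 0.07, SE, adjusted p = 7.60e-07). Cyp4f40 was higher by 0.31 and Cyp4f37 by 0.27. Cyp4f14, a hydroxylase of leukotriene B4 in the mouse, was higher by 0.24 ± 0.05 (SE, adjusted p = 2.42e-04), with medians of 11.03 in germ-free and 10.76 in conventional mice and overlapping ranges. Cyp4f13 at the end of the cluster did not pass over the 3 treatments (-0.09, adjusted p = 0.187) and was lower with long-chain β2→1-fructan (-0.25, adjusted p = 0.042).

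Of the 17 genes of the sterol, steroid, bile acid, retinoid and vitamin D families, 3 passed (17.6%), where 34% of all genes passed. Whether the families differ in this was not tested. Cyp27a1, the mitochondrial sterol 27-hydroxylase, ranged from 6.10 to 6.65 in germ-free mice, against 6.51 to 7.05 in conventional mice, and was lower by 0.43 ± 0.06 (SE, adjusted p = 4.58e-06). Cyp26a1, which breaks down retinoic acid, was higher by 0.24 (adjusted p = 0.0142), and Cyp11a1, which cleaves the side chain of cholesterol, by 0.20 (adjusted p = 0.0292), both on dim probe sets. Bile acid genes of the liver, Cyp7a1 (0.08, adjusted p = 0.263) and Cyp8b1 (0.02, adjusted p = 0.874), did not pass, also on dim probe sets. In family 1, which holds the best known Ahr targets, Cyp1a1 ranged from 2.37 to 3.13 in germ-free mice, against 2.34 to 2.86 in conventional mice, and did not pass (0.04, adjusted p = 0.668). Cyp1a2 did not pass either (-0.01, adjusted p = 0.949). Both Cyp1a1 and Cyp1a2 were read on dim probe sets, on which a difference can be missed. Cyp1b1, which hydroxylates oestrogens, was lower in germ-free mice by 0.37 ± 0.09 (SE, adjusted p = 0.00130), while its second probe set differed by -0.05.

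The differences were also taken with each treatment on its own, 4 germ-free against 4 conventional mice. With water 16 members were higher and 5 lower (of all genes 5.6% and 7.93%), with short-chain β2→1-fructan 18 were higher and 2 lower (8.84% and 6.21%), and with long-chain β2→1-fructan 15 were higher and 6 lower (7.27% and 8.58%). Different mice enter these 3 comparisons. With each of the 3 treatments, 11 members were higher, against 2.83% of all genes, and these were Cyp2e1, Cyp2j6, Cyp4b1, Cyp2d26, Cyp2c65, Cyp2c68, Cyp2c23, Cyp4f16, Cyp4f40, Cyp2j5 and Cyp2u1. Lower with each of the 3 were 2 members, Cyp3a25 and Cyp27a1, against 3.88% of all genes. Cyp3a25 averaged 6.84 ± 0.553 in germ-free mice on long-chain β2→1-fructan, against 8.64 ± 0.0954 in conventional mice (SD, n = 4 each). On short-chain β2→1-fructan it averaged 7.45 ± 0.696 in germ-free mice, against 8.46 ± 0.540 in conventional mice, and on water 7.44 ± 0.534, against 9.0 ± 0.0425. The log2 differences were -1.80, -1.0 and -1.56. Its call with short-chain β2→1-fructan was lost in 3 of 8 cases when 1 mouse was left out (germ-free mouse 1 or 4, or conventional mouse 3). Cyp2c55 passed with none of the 3 treatments on its own, with differences of -0.85, -0.56 and -0.87 (adjusted p = 0.0627, 0.250 and 0.0602).

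The second question was how the fructans changed the P450 genes. These comparisons were called at the thresholds of the study, p under 0.01 before adjustment together with a fold change above 1.3. At an adjusted p under 0.05 no gene of the table, and so no member, passed between fructans and water or between the 2 fructans. In conventional mice none of the 82 members was higher with short-chain β2→1-fructan than with water and 1 was lower, against 0.143% and 0.266% of all genes. This was Cyp2d26, with 8.88, 9.54, 9.84 and 9.04 on short-chain β2→1-fructan, against 9.77, 9.80, 9.67 and 9.86 on water. It was lower by 0.45 ± 0.15 (SE, p = 0.00625, adjusted p = 0.843, limma), with an exact permutation p of 0.114, where 0.0286 is the smallest the 4 against 4 mice allow. One short-chain mouse lay among the water mice, and the call ended in 5 of 8 cases when 1 mouse was left out (short-chain mouse 1 or 4, or water mouse 1, 2 or 4). Over the 8 cases the difference lay between -0.62 and -0.30. Long-chain β2→1-fructan against water called no member in either direction (0.165% and 0.149% of all genes), nor did long-chain against short-chain β2→1-fructan (0.117% and 0.0956%). At an unadjusted p under 0.05 there were 9, 6 and 2 members in these 3 comparisons (11%, 7.32% and 2.44%), against 5.22%, 5.67% and 3.63% of all genes.

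In germ-free mice short-chain β2→1-fructan against water called no member (0.409% of all genes higher and 0.17% lower, with 5 members, 6.10%, at an unadjusted p under 0.05, against 5.71% of all genes). Long-chain β2→1-fructan against water called 1 member as higher and 2 as lower, against 0.42% and 0.436% of all genes, with 12 members (14.6%) at an unadjusted p under 0.05, against 8.74% of all genes. Long-chain against short-chain β2→1-fructan called 1 as higher and 4 as lower, against 0.739% and 0.67%, with 18 members (22%) at an unadjusted p under 0.05, against 12.7% of all genes. The last 2 comparisons share the germ-free mice on long-chain β2→1-fructan.

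Cyp3a13, an intestinal member of family 3, had 9.16, 9.08, 9.08 and 9.07 in germ-free mice on long-chain β2→1-fructan, against 9.95, 9.66, 9.10 and 9.56 in germ-free mice on water. The long-chain mice lay close together at the low end of the water mice. It was lower by 0.47 ± 0.11 (SE, p = 1.44e-04, adjusted p = 0.299, exact permutation p = 0.0571), and by 0.34 at the least without germ-free water mouse 1, which ended the call. Cyp2c67 had 4.08, 3.78, 3.89 and 4.32 on long-chain β2→1-fructan, against 4.37, 4.60, 4.79 and 4.29 on short-chain β2→1-fructan and 4.93, 5.09, 4.10 and 4.64 on water. It was lower by 0.67 than with water (p = 4.89e-04) and by 0.50 than with short-chain β2→1-fructan (p = 0.00663), with an adjusted p of 0.299 and 0.258 and an exact permutation p of 0.0571 in both. Cyp2d9 had 3.46, 3.72, 3.5 and 3.59 on long-chain β2→1-fructan, against 3.28, 2.85, 3.27 and 3.04 on short-chain β2→1-fructan and 3.17, 3.31, 2.98 and 3.07 on water. All long-chain mice lay above the mice of both other groups, with a difference of 0.44 against water and 0.46 against short-chain β2→1-fructan (exact permutation p = 0.0286 in both, adjusted p = 0.299 and 0.143), on a probe set below the table median.

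The other genes called between the 2 fructans in germ-free mice were Cyp7b1, Cyp3a44 and Cyp4a31. Cyp7b1, which hydroxylates oxysterols, had 4.64, 4.33, 3.87 and 4.59 on long-chain β2→1-fructan, against 4.57, 5.05, 5.02 and 5.06 on short-chain β2→1-fructan, and was lower by 0.57 ± 0.15 (SE, p = 5.82e-04, adjusted p = 0.166, exact permutation p = 0.0857). One short-chain mouse lay within the long-chain range. Cyp3a44 was lower by 0.60 ± 0.21 (SE, p = 0.00741, adjusted p = 0.259, exact permutation p = 0.114), with 3 of 4 long-chain mice below all short-chain mice. Cyp4a31 was lower by 0.46 ± 0.14 (SE, p = 0.00264, adjusted p = 0.215, exact permutation p = 0.0571), on a probe set near the bottom of the scale. Leaving out single mice ended the call of Cyp3a44 in 6 of 8 cases (all but long-chain mouse 1 and short-chain mouse 4) and of Cyp2c67 against short-chain β2→1-fructan in 5 (long-chain mouse 1, 2 or 3, short-chain mouse 2 or 3). It ended that of Cyp4a31 in 2 (long-chain mouse 2 or short-chain mouse 3) and that of Cyp2d9 in 1 (short-chain mouse 2, difference 0.38), and that of Cyp7b1 in none of 8.

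**Figure D5:**
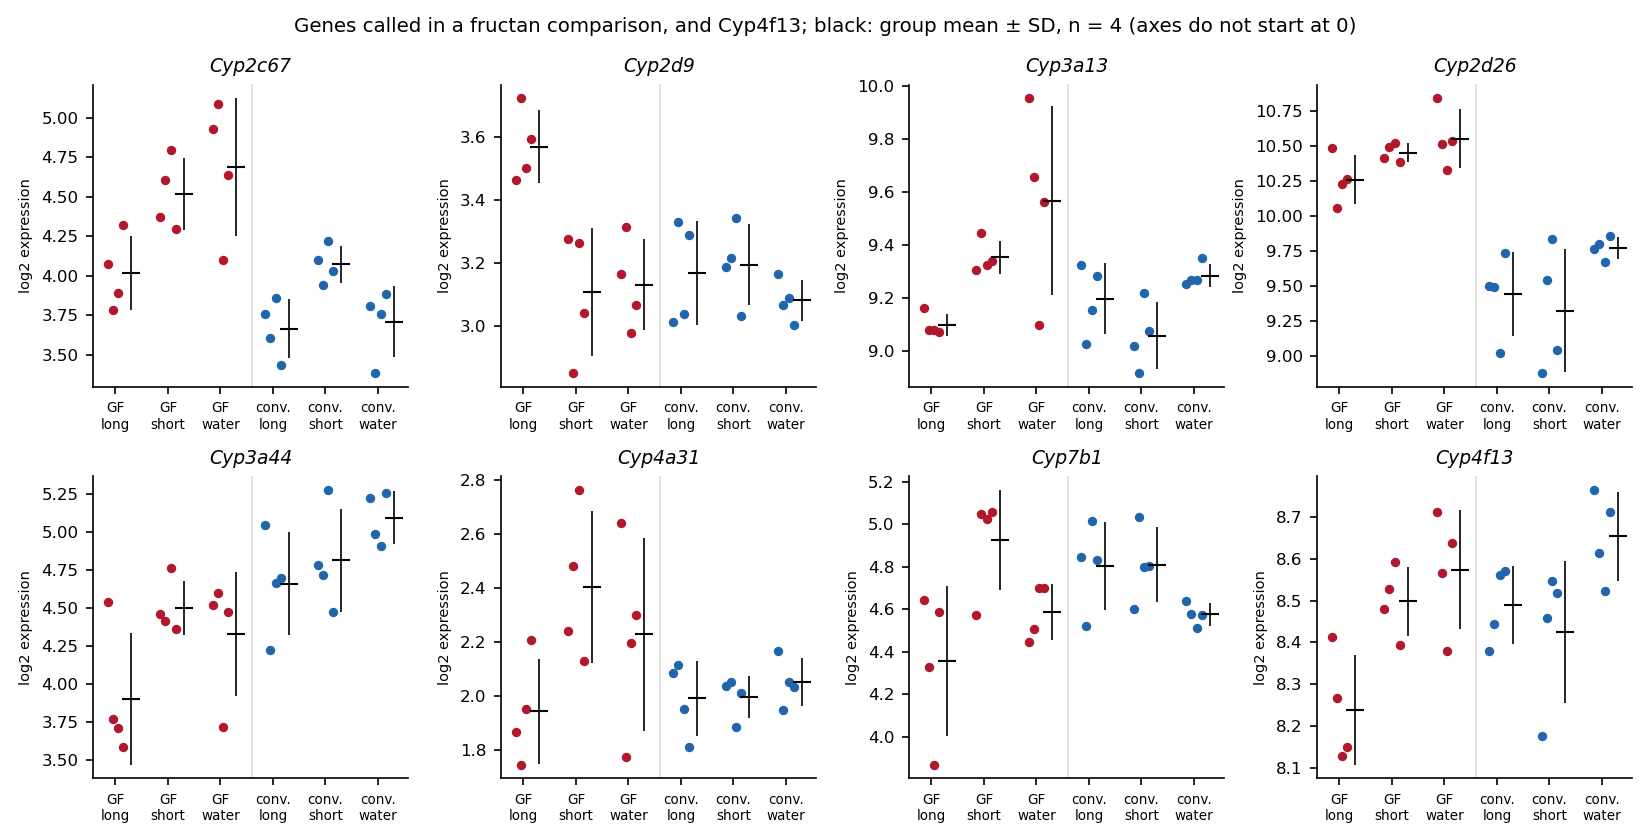
Level on the log2 scale (y axes) of the 7 P450 genes called in a fructan comparison and of Cyp4f13 in each of the 24 mice, germ-free in red on the left and conventional in blue on the right, with the black mark and bar as group mean ± SD (n = 4). In the leftmost group, germ-free mice on long-chain fructan, Cyp2d9 lies above the other germ-free mice (3.46 to 3.72) and Cyp3a13 at the low end (9.07 to 9.16).

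In family 4, 11 of the 12 genes had a negative log2 difference with long-chain β2→1-fructan against water in germ-free mice (median -0.16). In this comparison 50.9% of all genes and 35.4% of all 82 members were positive. The lean was not particular to family 4. In family 3 every gene but Cyp3a16 was negative too, here and with each fructan against water in conventional mice. Counts of the other families are not given. Against water in conventional mice, 10 of 12 family 4 genes were negative with long-chain β2→1-fructan (median -0.12), where 44.3% of all genes were positive. With short-chain β2→1-fructan 11 of 12 were negative (median -0.12), where 43.5% of all genes were positive. Of all 82 members 34.1% were positive with each fructan, so that the members together leaned the same way. These 2 comparisons share the water mice. With short-chain β2→1-fructan against water in germ-free mice 5 of 12 were negative and 7 positive (median 0.01), where 53.9% of all genes and 50% of all 82 members were positive. None of these family 4 genes was called at the thresholds of the study. Cyp4f13 with long-chain β2→1-fructan against water in germ-free mice had a difference of -0.33, under the fold of 1.3. The changes were compared between germ-free and conventional mice by an interaction term. No member was called, neither for the short-chain change, against 0.707% of all genes, nor for the long-chain change, against 0.531%, with 5 members each (6.10%) at an unadjusted p under 0.05, against 5.45% and 3.74% of all genes. For Cyp3a13 the long-chain change was lower by 0.38 in germ-free than in conventional mice (adjusted p = 1.0, limma), and for Cyp2c67 by 0.62 (adjusted p = 1.0, limma).

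Genes that work with the P450 enzymes were read from lists written from general knowledge. All 4 measured electron donors were higher in germ-free mice, Cyb5b by 0.52, Fdx1, the ferredoxin of mitochondrial P450 enzymes, by 0.35, Cyb5r3 by 0.26 and Cyb5a by 0.10 (adjusted p = 6.12e-10, 1.44e-05, 1.16e-05 and 0.0487), with no overlap between germ-free and conventional mice for Cyb5b. The call of Cyb5a ended in 15 of 24 cases when single mice were left out, and also with 1 variance prior for all genes, the moderated t of the study, cyclic loess, the replicate block and the adipocyte covariate. Por and Fdxr had no probe set of their own here. Of 3 P450 enzymes under other names, Cyp51, the lanosterol demethylase of cholesterol synthesis, was higher by 0.33 and Tbxas1, the thromboxane synthase, lower by 0.30, while Ptgis (-0.15, adjusted p = 0.104) did not pass. Of the 8 measured genes of haem synthesis and breakdown 3 were higher (Alas1 by 0.21, Uros by 0.26 and Cpox by 0.35), Ppox was lower by 0.20 and 4 did not pass.

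Of the 10 measured receptors and factors known to control P450 genes, 2 were higher and 4 lower in germ-free mice. Nr1i3 and Tiparp, also on this list, had no probe set of their own here. Ppara, the fatty acid receptor that acts on Cyp4a genes, was higher by 0.63 ± 0.08 (SE, adjusted p = 1.95e-07), with 7.40 to 8.26 in germ-free mice, against 6.86 to 7.49 in conventional mice. In germ-free mice it was lower by 0.39 with long-chain β2→1-fructan than with water (p = 0.00601, exact permutation p = 0.114, adjusted p = 0.387), the only call of these lists in a fructan comparison. In conventional mice all 4 long-chain mice lay below all 4 water mice (0.37 lower on the log2 scale, exact permutation p = 0.0286), just short of the fold of 1.3. Nfe2l2 (NRF2) was higher by 0.34. Ahrr, the repressor and target of Ahr, was lower by 0.57 ± 0.09 (SE, adjusted p = 8.55e-06), Nr0b2 by 0.41 (0.08 higher with the adipocyte sum as a covariate), and Nr1i2 and Arnt by 0.12 each. Ahr (-0.02, adjusted p = 0.753), Nr1h4 (0.01, adjusted p = 0.904), Rxra (0.06, adjusted p = 0.260) and Hnf4a (-0.04, adjusted p = 0.376) did not pass.

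Markers of cell types were read in the same arrays. The summed level of 7 ileal enterocyte markers overlapped, 14.43 to 14.78 in germ-free mice and 14.49 to 14.66 in conventional mice, with Slc10a2 higher by 0.15 and Cubn lower by 0.20 (adjusted p = 0.0412 and 0.00271). All 5 smooth muscle markers were lower in germ-free mice (sum 12.15 to 13.06, against 13.08 to 13.34 in conventional mice), as were 4 of 5 measured B and T cell markers (7.39 to 8.14, against 8.48 to 9.05) and 2 of 3 macrophage markers (7.70 to 8.22, against 8.26 to 8.50). Of 5 proximal enterocyte markers 1 was higher, Fabp1, and 2 were lower (sum 8.12 to 10.36 in germ-free mice, against 8.65 to 9.27). Of 7 hepatocyte markers 2 were higher and 1 lower (7.0 to 7.35, against 6.72 to 7.06), and none of 4 exocrine pancreas markers passed (5.81 to 6.14, against 5.69 to 6.5). With the adipocyte sum as a covariate, chosen after seeing the data, 12 members passed between germ-free and conventional mice (10 higher and 2 lower, 11 of them among the 37 above and Cyp2b13 besides), or 14.6%, against 8.63% of all genes. Among them were Cyp2j6, Cyp4b1, Cyp2d26, Cyp2c68, Cyp2c55 and Cyp3a25. The adipocyte sums overlapped little between germ-free and conventional mice, so that this model can hardly tell them from colonization. The smooth muscle and the B and T cell sums did not overlap between germ-free and conventional mice, so that they and colonization cannot be told apart in this model. With the smooth muscle sum 20 members passed (24.4%, against 13.3% of all genes), and with the B and T cell sum 1 member, Cyp2j6 (1.22%, against 2.55% of all genes). At the median over members, the standard errors were 2.13 times as large with the adipocyte sum as without it, 1.71 times with the smooth muscle sum and 3.42 times with the B and T cell sum. With the B and T cell sum the difference was 2.46 ± 0.94 for Cyp2e1, -1.38 ± 0.57 for Cyp3a25 and 0.55 ± 0.25 for Cyp4f16 (SE), close to the values without it. Other members moved more. Cyp2d26 had 0.49 ± 0.29 and Cyp2c68 0.47 ± 0.38 (SE), against 0.91 for each without the sum. Cyp2c67 had 1.03 ± 0.32 (SE), against 0.59 without it. In the fructan comparisons few markers passed the rule of the study. Slc2a2, a proximal enterocyte marker, was lower in conventional mice with short-chain and with long-chain β2→1-fructan than with water (-0.97 and -1.43). In germ-free mice on long-chain β2→1-fructan the B cell marker Ms4a1 was higher than with water and with short-chain β2→1-fructan (0.83 and 0.86), and the hepatocyte marker Serpinc1 was lower than with short-chain β2→1-fructan (-0.53). Their part in the P450 differences was not tested.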

How the data were processed

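RNA of 1 piece of terminal ileum from each of 24 mice was hybridized to 1 array each. Each probe set has 1 log2 value per array, as the authors deposited it. They made these values with the robust multiarray average (RMA) in the library affyPLM: background correction, quantile normalization between arrays and summary of the probes of a set. The methods name a remapped probe set definition, while the deposited rows bear the manufacturer's numbers. Groups and replicate numbers were taken from the sample labels, and no array was left out. Array medians were 4.92 to 4.98, and the 36 pairs of arrays within groups correlated with r of 0.979 to 0.990 across probe sets, and probe sets are no replicates of each other. The number of arrays limits the precision.

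Of 35556 probe sets 21218 carried 1 symbol in the platform table, 1881 several and 12457 none. Of the 1386 genes with several sets of their own, the set with the highest mean was kept, which gave 18820 genes. All were fitted without a filter in limma 3.58.1 (R 4.3.3) as 6 group means over 24 arrays, with a variance prior that follows the mean, and p were adjusted over all genes (Benjamini-Hochberg). Comparisons of colonization were called at an adjusted p under 0.05 and fructan comparisons at the rule of the study, p under 0.01 and a fold over 1.3. The study used an intensity-based moderated t (IBMT), which was tried as an alternative. Exact permutation tests were two-sided over the 70 divisions of 8 mice. The fit was tested on simulated data.

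The members, the lists of partner and marker genes and the named genes were chosen with earlier results of these data known. Named were the members called in a comparison (of more than 10, the 10 highest and the 10 lowest), the 10 members with the highest mean, the 2 with the smallest p for colonization in each role class, and each called gene of the partner lists. Some genes chosen so are not described, and other members of a described cluster or role were named after their values were seen. Marker sums are log2 of the summed linear values. Windows before gene starts came from the RefSeq tables of GRCm38.p6, which held one for 63 of 82 members, and identities from global alignment (match 1, mismatch -1, gap -2). Same-numbered mice of different groups did not deviate together in every pair, so that the numbers were not taken as pairs. Alternatives were 1 variance prior for all genes, the IBMT, cyclic loess, the mean of the probe sets of a gene, dim genes left out, only the arrays of the groups compared, a replicate block, leaving out each mouse and, added after seeing the data, marker sums as covariates.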

Additional observations from a re-analysis of the deposited data

Results flagged for a closer look

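In 13 of the 204 groups of 4 mice that were examined for 34 named P450 genes, 1 mouse lay far from the other 3. Chance flags about 1 in 20 such groups. Germ-free mouse 3 on water stood apart for 3 genes, with Cyp2j6 at 9.22 (9.68 to 9.70 in the others of its group), Cyp4f16 at 9.58 (10.02 to 10.08) and Cyp3a44 at 3.72 (4.47 to 4.60). Conventional mouse 1 on water stood apart for Cyp2c55 at 8.87 (9.84 to 9.88 in the others) and Cyp2c66 at 5.53 (6.26 to 6.33). For Cyp2c55 conventional mouse 3 on short-chain β2→1-fructan was high at 10.55 (8.98 to 9.03 in the others).

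Each of the other cases had another mouse. In germ-free mice, Cyp7b1 was 4.57 in mouse 1 on short-chain β2→1-fructan (5.02 to 5.06 in the others), Cyp2r1 was 5.29 in mouse 2 on short-chain β2→1-fructan (5.11 to 5.14) and Cyp3a13 was 9.16 in mouse 1 on long-chain β2→1-fructan (9.07 to 9.08). In conventional mice, Cyp2c68 was 4.76 in mouse 1 on short-chain β2→1-fructan (5.62 to 5.76 in the others) and Cyp2j6 was 8.39 in mouse 4 on long-chain β2→1-fructan (8.21 to 8.24). On water Cyp2d12 was 2.30 in conventional mouse 4 (2.54 to 2.55) and Cyp2d40 was 4.41 in conventional mouse 3 (4.66 to 4.70).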

How the results depend on the processing

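Between germ-free and conventional mice 37 P450 genes were called, and 22 when dim genes were left out before the fit (fewer genes by construction), 12 with the adipocyte sum as a covariate (11 of them among the 37), 20 with the smooth muscle sum and 1 with the B and T cell sum. With dim genes left out, long-chain β2→1-fructan against water and against short-chain β2→1-fructan in germ-free mice called 1 member each. With 1 variance prior for all genes, short-chain β2→1-fructan against water in conventional mice called 0 members, and long-chain against short-chain β2→1-fructan in conventional mice called 1 with only the arrays of the groups compared and 1 with the adipocyte covariate. The direction turned with the adipocyte covariate for Cyp2d12 (0.11) and Nr0b2 (0.084); the cause was not tested. Leaving out each mouse in turn gave 34 to 37 members between germ-free and conventional mice over all treatments, 14 to 19 on water, 14 to 19 on short-chain and 15 to 19 on long-chain β2→1-fructan. In conventional mice it gave 0 to 4 for short-chain against water, 0 for long-chain against water and 0 to 1 for long-chain against short-chain, and in germ-free mice 0 to 2, 2 to 5 and 2 to 6. The highest counts came without conventional short-chain mouse 3 (4), without germ-free long-chain mouse 1 or water mouse 3 (5) and without germ-free short-chain mouse 1 or long-chain mouse 1 (6). It gave 0 to 2 for the difference of the short-chain change and 0 to 2 for that of the long-chain change. With the replicate number as a block the counts were 37 over all treatments, 21 on water, 20 on short-chain and 21 on long-chain β2→1-fructan, as without it, and 1, 3 and 5 in the fructan comparisons that called members; single calls that ended were Cyb5a, Cyp2d40 on water, Cyp4a31 on short-chain and Cyp4f13 on long-chain β2→1-fructan. Same-numbered mice correlated in their deviations with r of -0.13 to 0.18. In bulk ileum with 4 mice per group, dim probe sets limit what could be seen.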
